A study of Mus musculus with 8 samples.

Results

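The genes described here are 2 metallothioneins, Mt1 and Mt2, the zinc-sensing transcription factor Mtf1, the zinc exporters Slc30a1, Slc30a5 and Slc30a8, and the zinc importers Slc39a6, Slc39a10 and Slc39a14. They were taken by symbol from the deposited table that compares NFATc2βKO (KO) with wild-type (WT) islets after cytokines, and all 9 listed genes were found among its 16333. Islets, the endocrine clusters of the pancreas, came from 2 KO and 2 WT mice, and those of each mouse were divided between an untreated culture and a cytokine culture, which gave 4 groups of 2 libraries. In KO mice Nfatc2, a transcription factor switched on by the phosphatase calcineurin, had been deleted in adult animals by tamoxifen in cells that express insulin, so other islet cells keep the gene. WT mice had received tamoxifen too, without a knockout, and the labels do not say whether they carried the tamoxifen-driven construct. All mice are labelled with the strain Agouti/C57BL6, the growth protocol names C57BL/6 mice from a supplier beside the transgenic line, and ages are given as adult alone. Hand-picked islets stood overnight in 5.5 mM glucose. Cytokine islets then received 3 cytokines over 2 h in 11 mM glucose, IFNγ (50 ng/mL) with TNFα (10 ng/mL) and the lowest dose, 5 ng/mL, of IL1β. No glucose is listed for the untreated cultures during the 2 h. Cytokines therefore cannot be told apart from any difference in glucose.

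Zinc in a cell is bound, sensed and moved by separate proteins. Metallothioneins are small cysteine-rich proteins that hold zinc and copper. MTF1 senses free zinc and switches on Mt1, Mt2 and Slc30a1 through metal response elements in their promoters, and it is known to hold Slc39a10 down. Exporters of the Slc30a (ZnT) family move zinc out of the cytosol, and importers of the Slc39a (ZIP) family move it in. Beta cells are rich in zinc because Slc30a8 (ZnT8) loads it into the insulin granule, where insulin is stored as a zinc complex.

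The 250 bases before the RefSeq start are shown for Mt1, Mt2 and Slc30a1, the 3 members that differed between groups below, because they hold the core of the metal response element. They are read on the plus strand of GRCm38.p6, 5′ to 3′, with each core in capitals: TGCACNC or TGCGCNC on either strand, where N is any base. The stretches are chr8:94178839-94179088 for Mt1, chr8:94172368-94172617 for Mt2 and chr1:191906531-191906780 for Slc30a1.
Mt1: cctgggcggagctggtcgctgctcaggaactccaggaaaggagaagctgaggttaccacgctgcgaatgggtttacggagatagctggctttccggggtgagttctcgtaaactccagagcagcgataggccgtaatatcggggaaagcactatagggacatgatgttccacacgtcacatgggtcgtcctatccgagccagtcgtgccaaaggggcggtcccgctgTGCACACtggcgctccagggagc
Mt2: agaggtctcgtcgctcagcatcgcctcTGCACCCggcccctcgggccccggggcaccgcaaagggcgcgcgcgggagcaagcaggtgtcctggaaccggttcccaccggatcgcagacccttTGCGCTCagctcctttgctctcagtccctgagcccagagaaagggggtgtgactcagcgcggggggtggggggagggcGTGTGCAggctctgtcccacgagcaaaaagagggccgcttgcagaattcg
Slc30a1: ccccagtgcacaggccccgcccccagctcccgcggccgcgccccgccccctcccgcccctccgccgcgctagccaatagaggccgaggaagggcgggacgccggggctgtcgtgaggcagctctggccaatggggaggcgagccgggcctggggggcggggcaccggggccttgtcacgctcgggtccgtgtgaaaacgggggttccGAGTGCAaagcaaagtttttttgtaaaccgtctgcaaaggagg
Mt1, chr8:94179087-94179115: gctcTGCACTCcgcccgaaaagTGCGCTC

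Mt2 held 3 cores before its start, Mt1 held 1 and Slc30a1 held 1. The last stretch shows why the window matters: with the first 50 bases after the start added, Mt1 held 3 cores, Mt2 held 4 and Slc30a1 held 2. These counts cover 1 RefSeq start for each of the 3 genes. Bases further downstream and other starts were not searched, so the counts do not rank the promoters. Of all 32851 promoters in the RefSeq table, 21.4% held at least 1 core in the 250 bases, 5.17% at least 2 and 1.26% at least 3, so a single core is common. Counting positions from 1 at the start site, the last core before it lay at -23 in Mt1, at -50 in Mt2 and at -43 in Slc30a1. The first core after it lay at 3, 5 and 31. Among the other members, Slc30a5 held 1 core at -48, and none was found in the windows of Mtf1 and Slc39a10. The antioxidant element TGACNNNGC, present in 10.2% of promoters, was matched before the start of Mt2 at -79 and of Slc30a1 at -82. The interferon-type element TTCNNNGAA (7.02% of promoters) was matched before 1 start of Slc39a10 at -82. The string TGGAAA, taken as the NFAT core (18.6%), and the NF-κB motif (0.356%) had no match in the 6 members with an entry, on either strand. Other forms of the NFAT core were not searched. The Mt1 stretch above holds AGGAAA, which differs from the searched string in its first base alone. With both strands read, it is not the only string in that stretch that differs so. The absence of a match therefore does not show that the Mt1 stretch lacks other forms of the NFAT core. Motif matches describe letters and not binding, and no binding was measured in these islets. Slc30a8, Slc39a6 and Slc39a14 are named without a promoter.

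**Figure D1:**
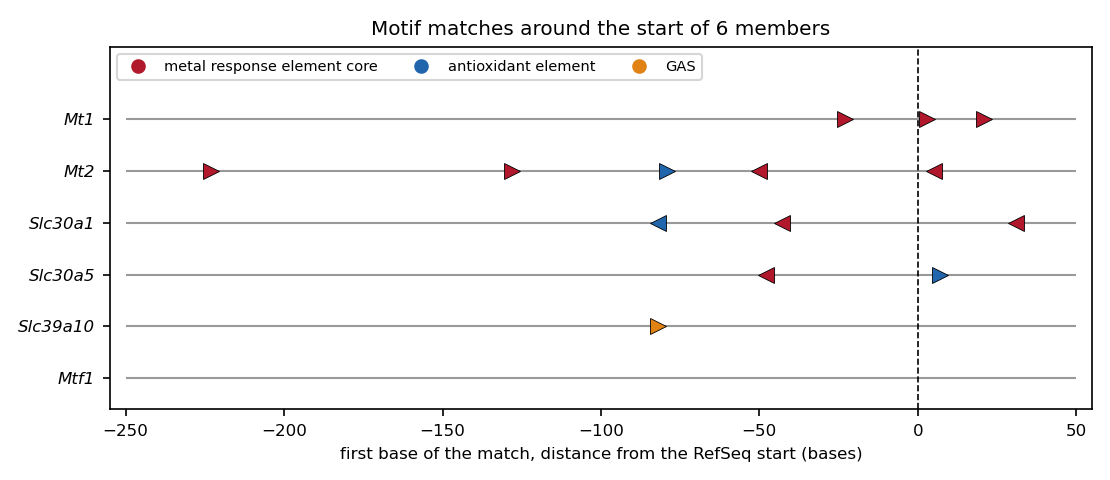
Motif matches around the start of 6 members. The horizontal axis gives the distance of the first base of each match from the RefSeq start in bases, from 250 before to 50 after, each line is 1 gene (Slc39a10 with both of its starts), and a triangle points right for a match on the strand of the gene and left for the opposite strand. Mt1 has 3 metal response element cores, Mt2 has 4 and Slc30a1 has 2, and Mtf1 has no match.

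The deposited files give group means. The 2 libraries behind each mean were recovered from it as whole reads for 16317 genes (99.9%), all 9 members included. Of 8 beta-cell markers 5 were among the recovered genes, and of 6 alpha-cell markers 5. Over the recovered genes libraries held 14562368 to 26861854 reads. Totals and shares of reads given here leave out the genes that were not recovered. Summed over 4 Y-linked genes, 1 library of each group held 0 to 46.9 normalized counts and the other 8614 to 9879, and Xist stood at 56740 to 62366 in the first and 21.7 to 166 in the second, so the libraries are named by the sex of the mouse, and those of the same sex and genotype come from the same mouse. Levels are read counts divided by the size factor of the library, called normalized counts. Nfatc2 itself stood at 1557 and 1270 normalized counts in untreated WT libraries (female, then male) and 1167 and 842 in untreated KO libraries. With cytokines it stood at 1646 and 1144 in WT and 987 and 899 in KO. KO libraries lay below WT libraries in both treatments, by 0.49 (SE 0.23) and 0.56 (SE 0.24) on the log2 scale in the authors' deposited tables, with FDR 0.903 and 0.474, so the lower level was not called. The sources used here do not say which exons the deletion removes. Of the beta-cell markers Ins1, Ins2, Mafa, Slc2a2, G6pc2, Ucn3, Nkx6-1 and Iapp, none was called in any of the authors' comparisons. The 9 members were chosen by symbol with the group means of all 4 groups and the KO over WT values in view, so every fold change and adjusted p of a member below is a description and no independent evidence.

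**Figure D2:**
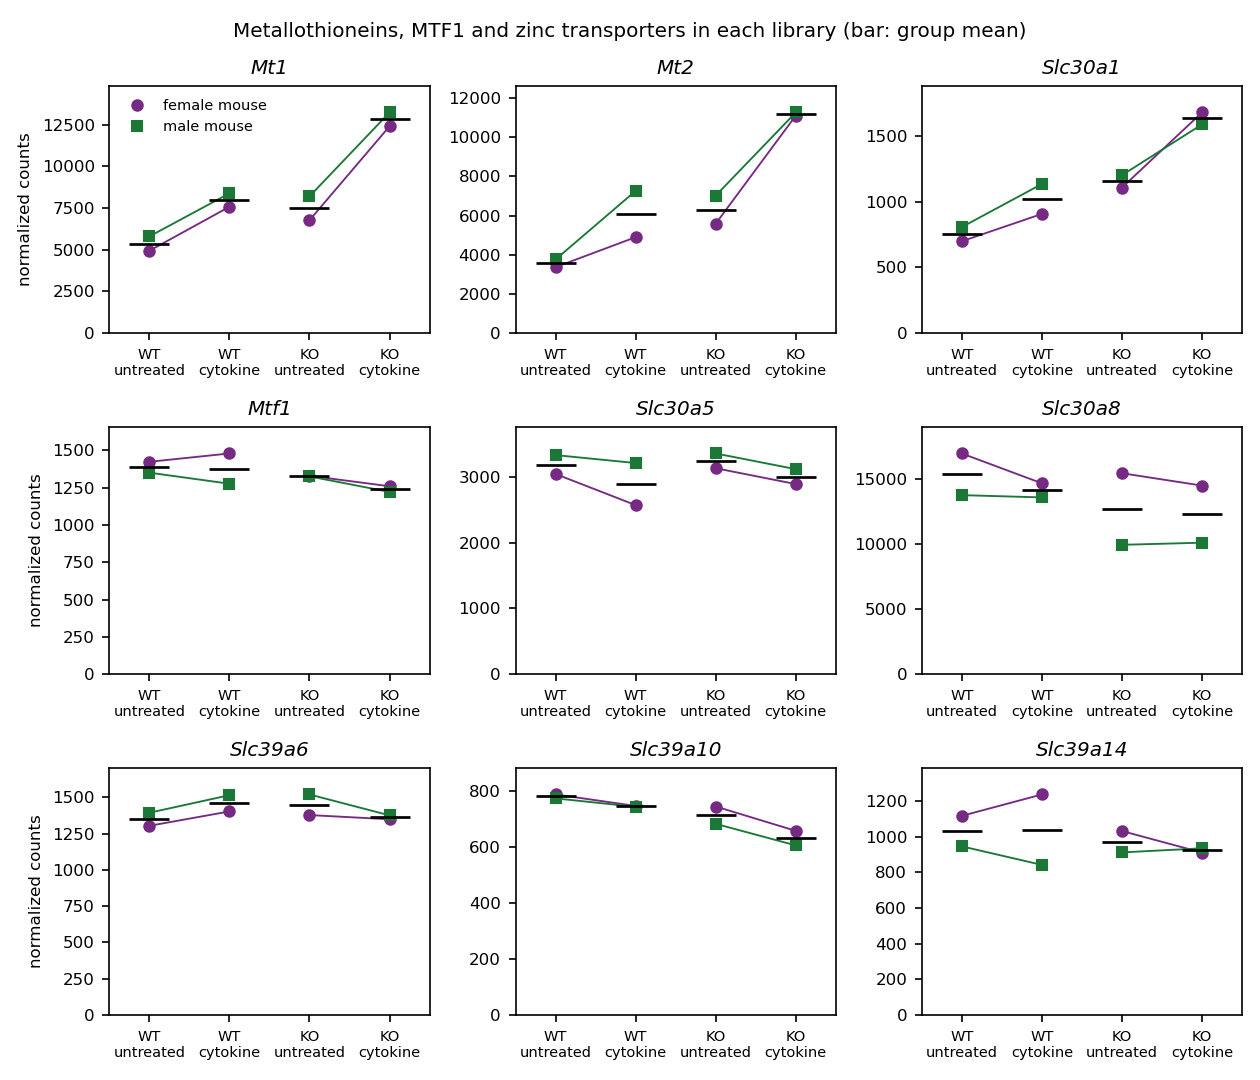
Levels of the 9 members in each library. Vertical axes start at 0 and give normalized counts, circles are female and squares male mice, lines join the libraries of 1 mouse, and black bars are means of 2. Mt1, Mt2 and Slc30a1 are lowest in untreated WT and highest in KO with cytokines, and the other 6 members stay within narrower ranges.

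Both metallothioneins were abundant, lowest in untreated WT and highest in KO with cytokines. Mt1 (chromosome 8, 94179082 to 94180327, plus strand; all gene positions from GENCODE M21 on GRCm38) stood at 4937 normalized counts in the female and 5799 in the male untreated WT library. With cytokines the same WT mice gave 7578 and 8385. Untreated KO libraries held 6769 and 8202, and KO libraries with cytokines held 12409 and 13239. The KO libraries with cytokines thus lay above all others, untreated WT libraries lay lowest, and untreated KO and cytokine-treated WT libraries overlapped. As means the order was 5368 ± 610 (SD, n = 2) in untreated WT, 7485 ± 1013 in untreated KO, 7982 ± 571 in WT with cytokines and 12824 ± 587 in KO with cytokines. The mean of KO with cytokines was 2.39 times that of untreated WT.

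Mt2 (chromosome 8, 94172664 to 94173568, plus strand) lies next to Mt1 and before it in the direction of transcription. Its untreated WT libraries held 3366 and 3759 normalized counts, and those with cytokines held 4895 and 7261. Untreated KO libraries held 5584 and 7019, against 11105 and 11266 with cytokines. The groups stood in the same relation as for Mt1: the lowest and the highest group did not overlap any other, and the ranges of the other two overlapped. Group means were 3563 ± 278, 6078 ± 1674, 6301 ± 1014 and 11185 ± 114 (SD, n = 2 each) in untreated WT, WT with cytokines, untreated KO and KO with cytokines. The last was 3.14 times the first, a wider span than for Mt1. Mt2 reads relative to Mt1 reads stood at 0.682 and 0.648 in untreated WT and at 0.646 and 0.866 in WT with cytokines. In KO this ratio was 0.825 and 0.856 untreated and 0.895 and 0.851 with cytokines, so both untreated KO libraries lay above both untreated WT libraries. As shares of recovered reads, Mt1 and Mt2 together took 0.0429% and 0.0486% in untreated WT libraries. In KO libraries with cytokines they took 0.121% and 0.124%. The paralogs are alike in sequence, Mt2 overlaps the antisense gene Gm45774, and neither the strand of the reads nor the treatment of reads that fit several genes is given, so some reads may belong to the other gene.

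Slc30a1 (ZnT1; chromosome 1, 191906767 to 191913247, plus strand), the exporter of the cell surface, moved as the metallothioneins did at a far lower level. Untreated WT libraries held 699 and 807 normalized counts and those with cytokines 907 and 1135. Untreated KO libraries held 1107 and 1202, and KO libraries with cytokines 1680 and 1589. Once more untreated WT was lowest, KO with cytokines was highest, and WT with cytokines (1021 ± 161, SD, n = 2) overlapped untreated KO (1155 ± 67.0). The highest group mean, 1635 ± 63.8, was 2.17 times the lowest, 753 ± 76.1. The antisense gene 1700034H15Rik overlaps Slc30a1 and cannot be told apart from it without strand.

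With cytokines, Mt1, Mt2 and Slc30a1 were higher in every mouse of both genotypes. Mt1 differed by 0.62 and 0.53 (log2, cytokine minus untreated) in the WT female and male and by 0.87 and 0.69 in the KO female and male. Mt2 differed by 0.54, 0.95, 0.99 and 0.68 in the same order, and Slc30a1 by 0.37, 0.49, 0.60 and 0.40. Higher levels in all 4 mice were seen for 12.4% of all genes tested and for 3 of the 9 members. Lower levels in all 4 mice were seen for 12.5% of all genes and for 2 members, Slc30a5 and Slc39a10. In limma over both genotypes with the mouse as block, Mt1 rose by 0.68 (log2, SE 0.05, adjusted p = 8.6e-04), Mt2 by 0.79 (SE 0.07, adjusted p = 0.00156) and Slc30a1 by 0.47 (SE 0.05, adjusted p = 0.00427). That fit called 0.607% of genes as higher. Without the block, limma gave the same sizes with adjusted p of 0.231, 0.455 and 0.671, so these calls rest on comparing each mouse with itself.

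Within a genotype the calls were fewer. For KO islets, the authors' deposited table gave Mt1 as 1.71-fold higher with cytokines (log2 0.78, SE 0.16, FDR 0.00383). Mt1 was the only member among the genes called as higher there, which were 0.0367% of those tested. Mt2 (log2 0.82, SE 0.22, FDR 0.222) and Slc30a1 (log2 0.50, SE 0.17, FDR 1.000) were not called, although the change of Mt2 was of the size of that of Mt1. In WT the authors' values were 0.57 (SE 0.16, FDR 0.718) for Mt1, 0.76 (SE 0.22, FDR 0.721) for Mt2 and 0.44 (SE 0.17, FDR 1.000) for Slc30a1. No member was called there, where 0.0122% of all genes were called as higher. At an unadjusted p below 0.05 the WT table held 150 genes, these 3 members among them. With the mouse as block, limma called Mt1 and Mt2 in KO (adjusted p 0.00720 and 0.0242, where 0.110% of genes were called as higher) and in WT (adjusted p 0.0259 and 0.0418, where 0.123% were). Slc30a1 missed the threshold in both (adjusted p 0.0599 and 0.0798). Left without 1 of its own 2 mice, the KO response was called for 0 members, and adjusted p for Mt1 was then 0.0707 without the KO female and 0.0586 without the KO male.

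A call in KO and none in WT is not a difference between them. The response of Mt1 was larger in KO by 0.20 on the log2 scale (SE 0.23, 95% interval -0.24 to 0.65, adjusted p = 1.000), from the authors' fold changes and a two-sided normal test adjusted over all genes. For Mt2 the difference was 0.06 (interval -0.54 to 0.66) and for Slc30a1 0.06 (-0.41 to 0.53). At an unadjusted p below 0.05 this test gave 36 genes and 0 members, and after adjustment it called 0 genes (0%); limma's interaction term with the mouse as block also called 0 members, with an unadjusted p of 0.0323 and an adjusted p of 0.998 for Mt1. The intervals are wide enough to hold a difference as large as the WT response of Slc30a1 itself, 0.44.

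**Figure D3:**
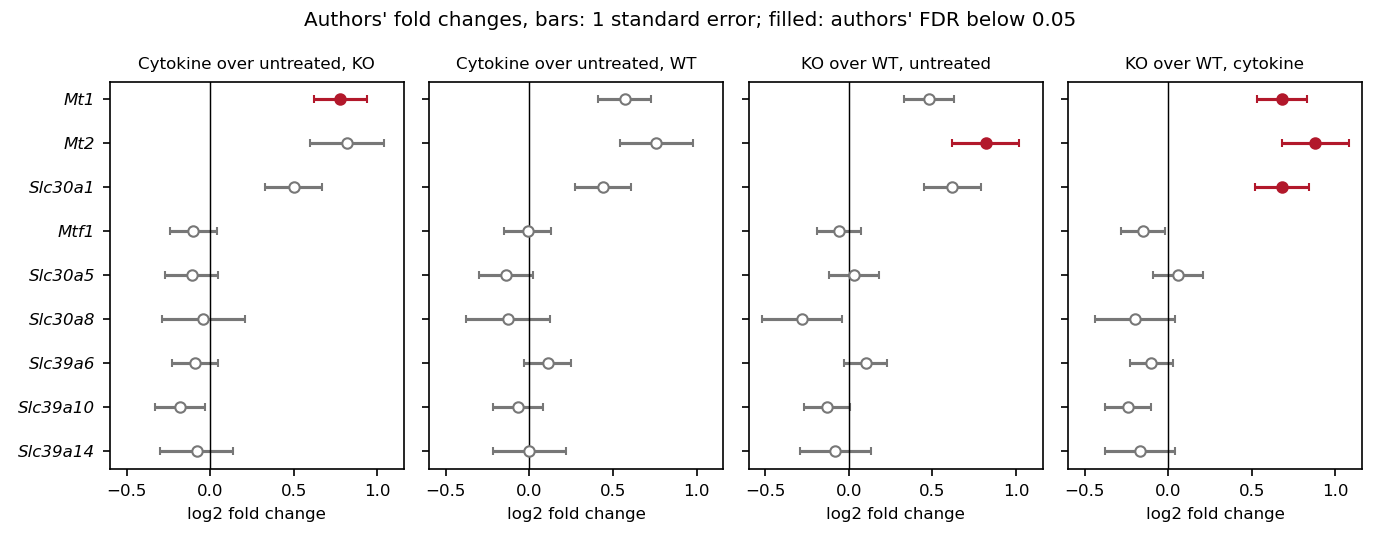
Log2 fold changes of the 9 members in the authors' 4 comparisons. The horizontal axis is the log2 fold change, bars are 1 standard error, and filled red points have an authors' FDR below 0.05. Mt1, Mt2 and Slc30a1 lie to the right of 0 in every panel, between 0.44 and 0.88, and the other 6 members lie between -0.28 and 0.11.

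KO islets held more Mt1, Mt2 and Slc30a1 transcripts than WT islets in each treatment. With cytokines the authors' deposited table gave 1.61-fold for Mt1 (log2 0.68, SE 0.15, FDR 0.00114), 1.84-fold for Mt2 (log2 0.88, SE 0.20, FDR 0.00318) and 1.60-fold for Slc30a1 (log2 0.68, SE 0.16, FDR 0.00706). All 3 were called there, where 0.814% of genes were called as higher. Untreated, Mt2 was 1.77-fold higher (log2 0.82, SE 0.20, FDR 0.0178) and the only member called, where 0.355% of genes were called as higher. Untreated Slc30a1 (log2 0.62, SE 0.17, FDR 0.0517) and Mt1 (log2 0.48, SE 0.15, FDR 0.138) missed the threshold. In both treatments both KO libraries lay above both WT libraries for these 3 members and for 7.99% of all genes. Both lay below for Mtf1 and Slc39a10 and for 7.15% of all genes.

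The genotype calls depend on how mouse-to-mouse spread is taken. In limma with no covariate the sizes were the same and no member was called: adjusted p was 0.216, 0.252 and 0.216 for Mt1, Mt2 and Slc30a1 with cytokines and 0.567, 0.534 and 0.397 untreated. With the mean of both treatments per mouse, which leaves 2 KO against 2 WT values, the differences were 0.58, 0.86 and 0.65 (log2; adjusted p in limma 0.471, 0.449 and 0.449). With sex as covariate, which leaves 1 residual degree of freedom and pairs unrelated mice by sex, limma called all 3 in both treatments, where 2.99% of genes untreated and 3.87% with cytokines were called as higher. The untreated and cytokine comparisons use the same 4 mice, so the second is no replication of the first, and genotype cannot be told apart from any other difference between these 2 pairs of mice.

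Markers of some other cell types differed between the genotypes, and in bulk tissue a changed number of cells cannot be told apart from changed RNA per cell. Summed over their 7 genes, macrophage and leukocyte markers took 0.0116% to 0.0150% of the normalized counts of recovered genes in the 4 WT libraries. In the 4 KO libraries they took 0.0170% to 0.0256%. The 7 stromal markers took 0.00817% to 0.0545% in WT and 0.0243% to 0.0688% in KO, and the 6 endothelial markers 0.0395% to 0.0516% in WT and 0.0251% to 0.0324% in KO. For KO against WT with cytokines the authors called 3 of the 7 macrophage and leukocyte markers as higher and 4 of the 6 endothelial markers as lower. Of all 16333 genes 133 were called as higher and 30 as lower there. Untreated, 1 macrophage and leukocyte marker and 1 stromal marker were called as higher in KO. For cytokines in KO, 1 of 4 delta- and PP-cell markers was called as lower. None of these markers was at 0 in any library. The 8 acinar markers, those of the exocrine cells around islets, took 0.318% and 0.0497% in untreated WT (female, then male) and 0.364% and 0.162% in untreated KO. With cytokines they took 0.151% and 0.0353% in WT and 0.610% and 0.115% in KO, so KO lay above WT in each sex and treatment. All 8 were above 0 for KO against WT with cytokines in the authors' table (median log2 2.05, 0 called). In limma over both genotypes all 8 were below 0 with cytokines, and 1 was called as lower. Their part in the higher Mt1, Mt2 and Slc30a1 levels of KO islets was not tested. With cytokines the stromal share went from 0.00987% to 0.0545% in the WT female and from 0.0527% to 0.0688% in the KO female, and from 0.00817% to 0.0108% in the WT male and 0.0265% to 0.0243% in the KO male. In the authors' table for WT all 7 stromal markers were above 0 with cytokines (median log2 2.05, 0 called). Mt1 was higher with cytokines in each of these 4 mice, and the part of stromal cells in that was not tested either.

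Mtf1 (chromosome 4, 124802104 to 124849800, plus strand), which encodes the factor that drives those 3 genes in other settings, was nearly level. It stood at 1424 and 1351 normalized counts in untreated WT libraries, 1480 and 1277 in WT with cytokines, 1330 and 1326 in untreated KO and 1260 and 1222 in KO with cytokines. Its highest library was 1.21 times its lowest. The authors' log2 fold changes were -0.10 and -0.01 with cytokines in KO and WT and -0.06 and -0.15 for KO against WT untreated and with cytokines (SE 0.13 to 0.14, FDR 1.000 in each). Both KO libraries lay below both WT libraries in each treatment. Mtf1 shares its locus with 1110065P20Rik on the opposite strand.

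Slc30a8 (chromosome 15, 52295553 to 52335798, plus strand), the exporter of the insulin granule, had a mean over all libraries of 13591 normalized counts. Female and male libraries held 16929 and 13730 normalized counts in untreated WT and 14640 and 13556 in WT with cytokines. They held 15412 and 9918 in untreated KO and 14464 and 10080 in KO with cytokines. The KO male was thus the lowest mouse in both treatments and the KO female lay within the WT range in both. The authors' KO over WT values were -0.28 (SE 0.24) untreated and -0.20 (SE 0.24) with cytokines, not called (FDR 1.000). Without the KO male the limma difference was 0.016 untreated and 0.038 with cytokines. That fit sets the KO female against WT mice of both sexes, so sex enters it. Within a sex, KO minus WT (log2) was -0.14 untreated and -0.02 with cytokines in females. In males it was -0.47 and -0.43, so the difference was larger there. With cytokines the authors' log2 values were -0.04 in KO and -0.13 in WT (SE 0.25 each), neither called. Females stood above males in each group.

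Slc30a5 (ZnT5; chromosome 13, 100802648 to 100833427, minus strand) brings zinc into the early secretory pathway. It ranged from 2573 normalized counts in the WT female with cytokines to 3360 in the untreated KO male. All 4 mice were lower with cytokines, by 0.24 and 0.05 in WT and by 0.12 and 0.11 in KO (log2, female then male). In limma with the mouse as block this amounted to -0.13 with an adjusted p of 0.153, so it was not called. Between genotypes it differed by 0.03 and 0.06 (log2, SE 0.15 each, not called).

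Of the importers, Slc39a10 (ZIP10; chromosome 1, 46807544 to 46892852, minus strand) had a pattern opposite to Mt1 but small. Untreated WT libraries held 788 and 774 normalized counts and those with cytokines 747 and 744. Untreated KO libraries held 745 and 683, and those with cytokines 658 and 606. Levels were lower with cytokines in all 4 mice and lower in KO than in WT of the same treatment in both sexes. The largest of the authors' values was -0.24 (SE 0.14, unadjusted p 0.0894, FDR 1.000) for KO against WT with cytokines, and in limma over both genotypes the response was -0.12 (adjusted p 0.244), so neither was called. Across the 8 libraries Pearson's r of log2 levels was -0.93 with Mt1, over points that share 4 mice and 4 groups. Gm28151 and Gm37393 overlap Slc39a10 on the same strand.

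Slc39a6 (ZIP6; chromosome 18, 24579881 to 24603817, minus strand), an importer of the cell surface, stood between 1304 and 1520 normalized counts in all 8 libraries. Its cytokine response was 0.11 and 0.12 (log2) in the WT female and male and -0.03 and -0.14 in the KO female and male. The difference of the authors' fold changes was -0.20 (SE 0.20, 95% interval -0.59 to 0.19, adjusted p = 1.000 in the normal test over all genes), so opposite signs lie within that error. In limma's interaction term with the mouse as block the difference was -0.20 with a smaller error (SE 0.08, unadjusted p 0.0413). It was not called there either (adjusted p 0.998). Elp2 lies on the opposite strand at the same locus.

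Slc39a14 (ZIP14; chromosome 14, 70303469 to 70351425, minus strand) imports zinc, iron and manganese and is known for its induction by IL6 in liver. Untreated WT libraries held 1117 and 946 normalized counts and WT libraries with cytokines 1237 and 842. Untreated KO libraries held 1032 and 912, and KO libraries with cytokines 911 and 935. The WT mice moved in opposite directions, as did the KO mice. The authors' cytokine values were -0.08 in KO and 0.00 in WT (SE 0.22 each), neither called. In limma over both genotypes with the mouse as block the response was -0.04 (SE 0.06, adjusted p 0.790), so it was not called, with an error close to that of Slc30a1 in the same fit.

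Set against length, the means over all libraries were 11534 normalized counts per kilobase of exon for Mt2, 6896 for Slc30a8 and 6753 for Mt1. The remaining members stood at 423 (Slc30a5), 345 (Slc39a6), 218 (Slc30a1), 150 (Mtf1), 118 (Slc39a10) and 94.0 (Slc39a14) per kilobase. The order of the first 3 changed with the group and depends on the exon length used. For Mt1 that length, 1246 bases, is the union over all annotated transcripts and covers its whole locus. A shorter length would raise its values, so the ranks below hold for these lengths alone. In untreated WT Slc30a8 stood highest, with a mean of 7778 per kilobase (6966 to 8589 in its 2 libraries), above Mt2 at 6059 (5724 to 6393) and Mt1 at 4308 (3962 to 4654), with no overlap. In KO with cytokines Mt2 stood at 19022 (18885 to 19159), Mt1 at 10292 (9959 to 10625) and Slc30a8 at 6226 (5114 to 7338), again with no overlap. In the other 2 groups Mt2 was highest, at 10337 in WT with cytokines and 10717 in untreated KO. There Slc30a8 (7153 and 6426) and Mt1 (6406 and 6007) lay closer, and their ranges overlapped in untreated KO.

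Other zinc transporters did not follow Slc30a1. Of 10 exporters listed 7 were measured, of 14 importers 11 were, and the 12 that are not among the members were called in 0 of the authors' 4 comparisons and not in the limma fit over both genotypes. Their median log2 fold change was -0.05 and 0.00 with cytokines in KO and WT and 0.03 and 0.08 for KO against WT untreated and with cytokines, where the median over all genes was 0.00 in each. Second to Slc30a8 among the exporters was Slc30a7, which works in the secretory pathway, with a mean over all libraries of 463 normalized counts per kilobase and authors' log2 fold changes between -0.15 and 0.10 in the 4 comparisons. The 3 importers with the most reads were Slc39a9, Slc39a6 and Slc39a1, at 345, 345 and 594 normalized counts per kilobase, and the fold changes of Slc39a9 lay between -0.12 and 0.05. The third metallothionein measured, Mt3, had a mean of 37.9 normalized counts and values of 0.15 and 0.17 with cytokines in KO and WT (SE 0.54 and 0.55), too low for a change of the size seen in Mt1 to be detected. Slc39a11 stood at 1607 and 1579 normalized counts in the KO male, untreated and with cytokines, against 710 to 894 in the other 6 libraries, and is named after its values were seen. Its KO over WT values of 0.65 and 0.64 (SE 0.33 each, FDR 1.000 and 0.870) were not called.

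**Figure D4:**
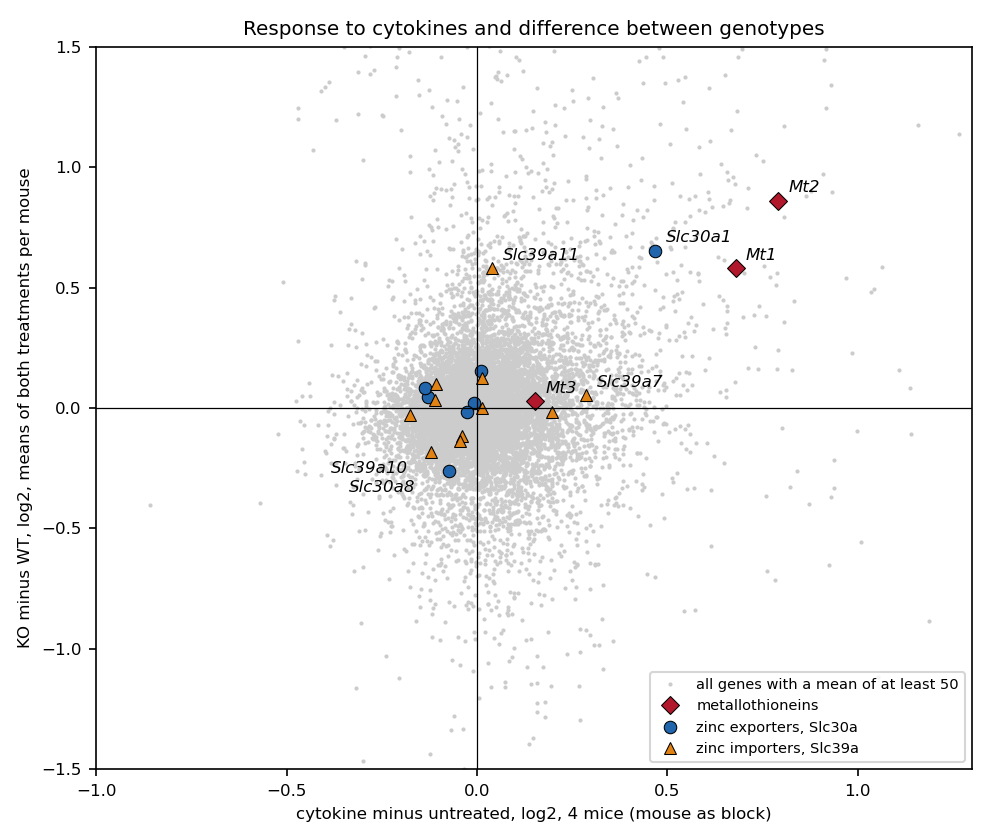
Cytokine response and genotype difference of zinc genes. The horizontal axis is the limma log2 change with cytokines over 4 mice with the mouse as block, the vertical axis the log2 difference of KO and WT from the mean of both treatments per mouse, grey points are 14228 genes with a mean of at least 50 normalized counts, of which 134 lie outside the axes, and both axes use the same libraries. Mt1, Mt2 and Slc30a1 lie at the upper right, at 0.47 to 0.79 on the horizontal and 0.58 to 0.86 on the vertical axis, and the other zinc transporters lie between -0.18 and 0.29 on the horizontal axis.

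Of 9 genes known from other tissues to depend on MTF1, 4 were called as higher in KO than in WT with cytokines. That comparison called 0.814% of all genes as higher. The 4 were Gclc and 3 members, Mt1, Mt2 and Slc30a1. Those members were chosen with these values in view, so their calls are no separate support. Gclc, the catalytic subunit of the first enzyme of glutathione synthesis, differed by 0.43 on the log2 scale (SE 0.12) with an FDR of 0.0457 in the authors' deposited table, and stood at 1897 and 1680 normalized counts in KO against 1347 and 1310 in WT. Its cytokine response was 0.04 in the limma fit over both genotypes (adjusted p 0.697), unlike that of the 3 members. The list's median for KO against WT with cytokines was 0.35, with 7 of 9 values above 0, both counted with those 3 members. The remaining genes on it (Slc39a10, Ndrg1, Csrp1, Selenoh and Selenow) were not called. Of 16 genes for copper and iron handling 15 were measured and 0 were called in the authors' 4 comparisons or in limma over both genotypes. Those with the most reads were the ferritin chains Ftl1 (8249 normalized counts per kilobase) and Fth1 (1916) and the iron regulator Ireb2 (570), and their log2 changes with cytokines in that fit were -0.01, 0.08 and -0.01.

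Pathways that drive metallothioneins in other tissues were read in the same libraries. Of 7 measured glucocorticoid-response genes 0 were called by the authors' FDR and 1, Cebpd, was called in limma over both genotypes (0.50, adjusted p 0.0218). Of 9 NRF2 targets Gclc alone was called, in the comparison above. Of 12 genes of the IL6 and STAT3 response 11 had values above 0 with cytokines in each genotype, with medians of 0.44 in KO and 0.49 in WT, and 0 were called by the authors. Limma over both genotypes called 4 of them: Il6 (1.44, adjusted p 0.0363), Junb (0.56, adjusted p 0.00845), Cebpd and Socs3 (0.43, adjusted p 0.0490), the last an inhibitor induced by STAT3. For KO against WT with cytokines all 12 of the authors' values were below 0 (median -0.29, 0 called), but the sexes did not share this sign. In males with cytokines Junb stood at 955 normalized counts in KO against 803 in WT, and Socs3 at 652 against 504. Of the 12, Il11 (90.9 against 184), Il6st (7463 against 11661) and Il6ra (1853 against 2404) went the other way. The rest stood higher in the KO male, Lif (74.7 against 73.3) and Osmr (244 against 240) by little. In females with cytokines each gene of the list stood lower in KO. The part of these pathways in the metallothionein levels was not tested. The WT female held most of the Il6 reads, at 349 normalized counts with cytokines against 44.2 in the WT male and 57.1 and 54.3 in KO, and at 75.8 untreated it was also the highest of the untreated libraries, and the WT male lay below both KO libraries with cytokines.

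The genes whose log2 levels followed Mt1 most closely over the 8 libraries were Mt2 (Pearson's r 0.976), Bmp2k (0.972), 1700056E22Rik (0.962), Nfyb (0.960) and A830010M20Rik (0.957), among 14227 genes compared. Mt1 correlated with Slc30a1 at 0.96 and Mt2 with Slc30a1 at 0.99. Slc30a8 was followed by Gria2 (0.985), Npnt (0.980), Peg3 (0.980), A1cf (0.977) and Zim1 (0.976), and Slc39a14 by Irf2bp1 (0.979), Urb1 (0.977), Zfp629 (0.975), Vps11 (0.974) and Mink1 (0.972). With 8 libraries from 4 mice many genes reach such values, and they are given as a description.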

How the data were processed

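RNA-seq of pancreatic islets from 4 mice in 4 groups of 2 libraries was deposited as 4 tables of the authors' own comparisons, which name the genotypes KO and Mut. No label uses Mut, and it was taken for WT, the remaining genotype. Per the submitters' processing notes the tools were HISAT2, HTSeq and DESeq2 on GRCm38, and neither versions nor roles are given there. The deposited signal columns hold means of size-factor normalized reads per group and over all libraries, and the smallest overall mean was 23.2. The authors' log2 fold changes and their score, a Wald statistic, were used as deposited, and the standard error was taken as their quotient. The deposited p-values and FDR values are the authors', with calls at FDR below 0.05.

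A group mean is the sum of 2 whole read counts, each times a step. All 8 counts were solved per gene with Python 3.11.15, with a unique solution for 16098 genes and 219 more settled by the overall mean at a relative tolerance of 2e-14. Log2 of normalized counts plus 0.5 was fitted with limma 3.58.1 in R 4.3.3 with an intensity trend and Benjamini-Hochberg adjustment over 16317 genes, with the mouse as block for cytokine responses. The pairing comes from the study's design and the sex-linked genes: deviations of libraries of the same mouse correlated at 0.677 in KO and 0.722 in WT. Both steps were checked on simulated data. Recovered libraries cannot be tied to the replicate numbers in the labels, and p-values cover the spread between 2 mice a genotype. The members and the gene lists were chosen with earlier results of these data known. Genes named were the members, Nfatc2, list genes that were called or among the 3 most abundant of the zinc, copper and iron lists, and the 5 genes closest to Mt1, Slc30a8 and Slc39a14 by Pearson's r among those with a mean of at least 50. Alternatives were a threshold of 0.1, a minimum mean of 50, a pseudocount of 5, scaling to total reads, fits with and without block, mouse means, and leaving out each mouse.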

Additional observations from a re-analysis of the deposited data

How the results depend on the processing

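Mt1, Mt2 and Slc30a1 kept their direction in all 150 alternative values of their fold changes, of which 30 lost and 30 gained a call. In KO, cytokines called 1 member by the authors' FDR and 0 in limma with no replicate block. With the mouse as replicate block 2 were called, also with a pseudocount of 5 or total-read scaling. In WT the counts were 0 by the authors' FDR and with no block, and 2 in these block fits. Leaving out a mouse leaves 1 in its genotype, so sizes alone are given here for these responses. Without each mouse, Mt1 changed by 0.691 to 0.874 (log2) in KO and 0.532 to 0.618 in WT. Mt2 changed by 0.683 to 0.992 and 0.540 to 0.950, and Slc30a1 by 0.403 to 0.601 and 0.375 to 0.492. For KO against WT untreated, 1 member was called by the authors and 2 at FDR below 0.1. With sex as block 3 were called under each scaling and pseudocount, and 0 with no block or with mouse means. With cytokines the 3 calls became 0 with no block or with mouse means. Genotype fits without any 1 mouse also had no block, a setting that called 0 members with all mice kept. Their calls therefore cannot show dependence on a mouse, and sizes alone are given. With cytokines, log2 differences without each mouse were 0.612 to 0.758 for Mt1, 0.623 to 1.192 for Mt2 and 0.526 to 0.849 for Slc30a1. Untreated, they were 0.339 to 0.616, 0.651 to 0.980 and 0.516 to 0.722. Over both genotypes the 3 calls became 0 with no replicate block and stayed at 3 without each mouse. The cause of these differences was not tested. Where a mouse was left out, its remaining partner was assumed to vary like the other genotype.

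The other 6 members kept their direction in 277 of 300 values, and those that reversed were never called. With cytokines in WT, Slc39a14 (0.003) gave -0.010 with and without replicate block and -0.009 with a pseudocount of 5, and Mtf1 (-0.011) gave 0.003 scaled to total reads. For KO against WT with cytokines Slc39a6 (-0.100) gave 0.002 with mouse means. Leaving out each mouse, log2 values ranged as follows. With cytokines in KO, Slc30a8 ranged from -0.092 to 0.023 and Slc39a14 from -0.180 to 0.035. In WT, Slc39a14 ranged from -0.167 to 0.148 and Mtf1 from -0.081 to 0.056. Over both, Slc39a14 ranged from -0.104 to 0.005 and Slc39a6 from -0.023 to 0.065. For KO against WT untreated, Slc30a5 ranged from -0.039 to 0.091, Slc30a8 from -0.620 to 0.016 and Slc39a14 from -0.203 to 0.037. With cytokines, they ranged from -0.097 to 0.224, -0.483 to 0.038 and -0.423 to 0.132.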
